A study of Rattus norvegicus with 32 samples.

Results

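Rat pups whose dams were not made iron deficient (iron sufficient, IS) received insulin through the nose or served as controls, and gene expression was measured by RNA sequencing of 1 hippocampus per pup. The comparison covers 15 of the 32 libraries of the study: 7 pups labelled iron sufficient and treated with intranasal insulin (IS insulin) and 8 labelled iron sufficient and control (IS control), taken from the group names in the sample labels. All 15439 genes with enough counts were tested. Insulin was given 2 times a day from postnatal day 8 to postnatal day 21. The other libraries came from pups of dams fed a purified diet with 3 to 6 ppm iron from gestational day 3 to postnatal day 7 (iron deficient, ID), 9 of them controls and 8 treated with insulin on the same days. All pups are labelled wild type, and the diet of the IS dams and what the controls received through the nose are not given in the sources used here.

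The labels limit the comparison in several ways. They give collection on postnatal day 7 or 21 without tying a day to a sample. Treatment began after the earlier day and ended on the later one, so the insulin-treated pups belong to day 21, while the labels leave the day of the controls unsettled. The sample titles begin with a number that is 71 for IS control and 72 for IS insulin, so whatever that number stands for cannot be told apart from treatment. It is 69 or 70 for ID control and 73 for ID insulin. The same limit therefore holds for the ID comparison and for the interaction of diet and insulin. Litter is not stated either, so a p-value here reflects how far individual pups varied. The spread in the main test was estimated from all 32 libraries, those of the ID pups included.

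Insulin binds the insulin receptor and, less tightly, the related IGF1 receptor, and the signal passes through the IRS adaptor proteins to PI3 kinase and AKT. AKT keeps FoxO transcription factors out of the nucleus, releases the mTOR complex that drives protein synthesis and inhibits GSK3. Hippocampal neurons carry insulin receptors, and in the first postnatal weeks this region lays down dendrites, synapses and myelin, which makes it sensitive to both iron and growth factor supply.

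Total counts were 19619345 to 27646299 in IS control and 21021213 to 28062630 in IS insulin. The share of counts from mitochondrially encoded genes was 8.47% ± 0.656 (SD, n = 8) in IS control and 9.89% ± 1.15 (SD, n = 7) in IS insulin. IS insulin replicates 1 and 2 had the highest mitochondrial shares of the 15 libraries, 11.3% and 11.4%, and results are therefore also given without them. They also scored highest on the first principal component (22.6% of the variance), at 35.7 and 35.9, followed by IS insulin replicate 4 at 22.5 and IS control replicate 3 at 20.2, with IS control replicate 8 at the other end at -31.5. Ttr, the transthyretin gene that marks choroid plexus, ranged from 8.38 to 3024 CPM in IS control and from 17.8 to 4009.6 CPM in IS insulin, so choroid plexus RNA varied widely within both groups. CPM, the unit of all levels here, are read counts relative to the TMM-scaled library total. Y-linked transcripts summed to over 10 CPM in 4 of 8 IS control and 3 of 7 IS insulin libraries. The same held for 3 of 9 ID control and 4 of 8 ID insulin libraries. Each group thus held pups of both sexes, and the main test had no term for sex. IS insulin replicates 1 and 2 had 0 CPM of these transcripts.

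After insulin, 19 genes passed the test in iron-sufficient pups, 11 higher and 8 lower, and all but 1 of the differences were smaller than 2-fold. Among the genes that rose were Dbp, an output factor of the circadian clock, Rbm3, a cold-inducible RNA-binding protein, and Ugp2, the enzyme that makes UDP-glucose. Among those that fell were Dpysl3, a growth cone protein of developing axons, Srrm4, a splicing regulator of neuronal microexons, and Fbn2, a fibrillin of the extracellular matrix. The insulin and IGF, PI3 kinase, FoxO and mTOR lists had 16, 24, 21 and 20 genes tested. Of these 0 passed, against 0.123% of all genes tested, a share at which lists of this size would mostly hold none. The size of the difference had a median of 0.36 on the log2 scale over the 19 genes and a range of 0.21 to 1.30.

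The 19 genes were called at an adjusted p under 0.05 by edgeR's quasi-likelihood test with Benjamini-Hochberg adjustment. They were 0.123% of the genes tested, with 0.0712% higher and 0.0518% lower. At an unadjusted p under 0.05 there were 2515 genes (16.3%), of which 1343 (8.7%) were higher and 1172 (7.59%) lower. Whatever their p, 8257 of the 15439 genes had a positive difference and 7182 a negative one. These shares are the background for the counts on the gene lists below. In 57 genes (0.369%) the IS insulin and IS control libraries did not overlap, and 11 of the 19 called genes were among these 57. The calls lay close to the threshold, with edgeR adjusted p of 0.0282 to 0.0473, and the nearest gene outside it, Grm5, had an edgeR adjusted p of 0.0552.

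The number of called genes depended on which libraries were kept. With 1 IS library left out at a time it fell to between 0 and 18, except for 34 without IS insulin replicate 6. Fitted without the ID libraries, the 15 IS libraries gave 9, of which 6 were among the 19. Without IS insulin replicates 1 and 2, a choice made after seeing the data, 0 genes were called by edgeR, 1051 had an unadjusted p under 0.05 and the smallest adjusted p was 0.183. With the mitochondrial share as a covariate, also added after seeing the data, 0 were called as well, and 1268 had an unadjusted p under 0.05. That share itself differed between the groups, so this covariate can also take out part of the group difference, here and in the sections below. Leaving out IS control replicate 5 or IS insulin replicate 1 alone also left 0, and DESeq2 on all libraries called 206 (1.33%), including all 19. Each of the 19 genes kept its sign in every alternative run. Without IS insulin replicates 1 and 2 each kept an unadjusted p of at most 0.003 (edgeR). The genes were chosen on libraries that these runs reuse, so neither is independent support. The difference became smaller in 16 of the 19 genes without those replicates, and in 17 with the mitochondrial share as a covariate.

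**Figure D1:**
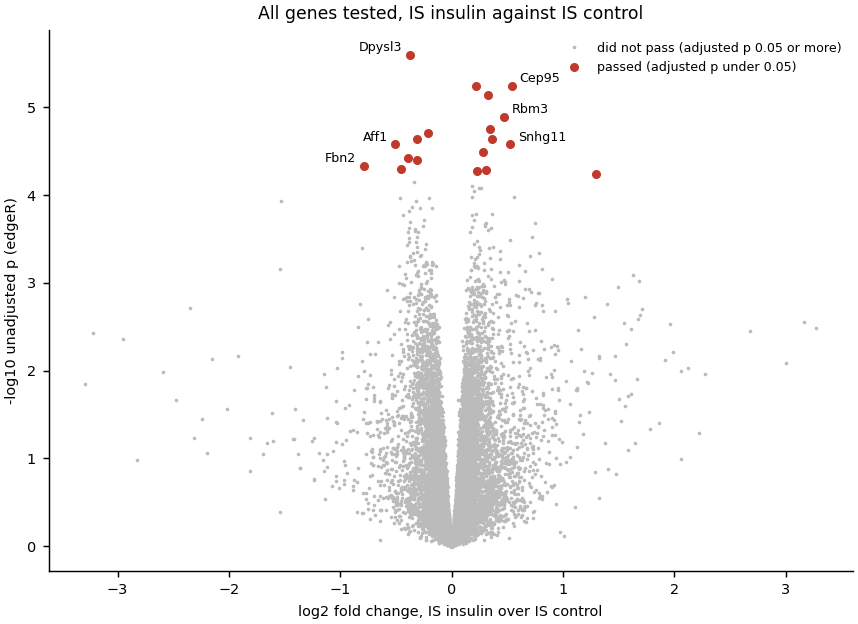
Each point is 1 of the 15439 genes tested, with the log2 fold change of IS insulin over IS control on the horizontal axis and -log10 of the unadjusted edgeR p on the vertical axis. The 19 red points passed at an adjusted p under 0.05; 18 of them lie between -0.79 and 0.54, inside the 2-fold range.

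Cep95, which encodes a centrosomal protein, had the largest increase among called genes with an established symbol. The IS control libraries held 11.2 to 13.0 CPM (median 11.7) and the IS insulin libraries 13.5 to 24.1 CPM (median 16.1). All 7 insulin libraries lay above all 8 controls, and the values were tighter in the control group. The difference was 0.54 ± 0.10 (log2, SE), a 1.46-fold increase, at an edgeR adjusted p of 0.0282. Without IS insulin replicates 1 and 2 it was 0.37 (edgeR adjusted p = 0.316).

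Rbm3 had 35.5 to 44.3 CPM in IS control (median 37.5) and 43.9 to 72.0 CPM in IS insulin (median 49.7). The lowest insulin library fell just under the highest control and the other 6 lay above every control. It rose by 0.48 ± 0.092 (log2, SE, edgeR adjusted p = 0.0373). Snhg11, a long noncoding RNA that hosts a small nucleolar RNA and is abundant in neurons, had 39.3 to 55.1 CPM in IS control (median 43.5) and 56.1 to 77.4 CPM in IS insulin (median 60.9). Its groups did not overlap, although 1 control library stood well above the other 7. The difference was 0.53 ± 0.11 (log2, SE, edgeR adjusted p = 0.0373).

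Ugp2 supplies the UDP-glucose used for glycogen and for sugar transfer to proteins and lipids. It had 65.5 to 76.1 CPM in IS control (median 71.5) and 74.6 to 97.4 CPM in IS insulin (median 82.1). The groups overlapped by a single insulin library, and the increase was small, 0.22 ± 0.041 (log2, SE, edgeR adjusted p = 0.0282). Pnp, the purine nucleoside phosphorylase of purine salvage, rose by 0.28 ± 0.058 (log2, SE, edgeR adjusted p = 0.0416), from a median of 82.6 CPM to one of 103 CPM, and 6 of 7 insulin libraries were above every control. Tdp2, a repair enzyme that frees topoisomerase from DNA ends, had 15.4 to 18.7 CPM in IS control and 20.2 to 24.7 CPM in IS insulin. These ranges did not touch, and the rise was 0.36 ± 0.073 (log2, SE, edgeR adjusted p = 0.0373).

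The other named genes that rose were Entr1, a regulator of endosomal traffic, Commd4, a member of the COMM domain family, and Mapk1ip1, together with the clock gene Dbp described further on. Their increases were 0.35, 0.31 and 0.22 on the log2 scale for Entr1, Commd4 and Mapk1ip1. In Entr1 and Mapk1ip1 every insulin library lay above every control, while in Commd4 2 insulin libraries lay within the control range. An unnamed locus listed as AABR07039133.2 was the only called gene past 2-fold, at 1.30 ± 0.28 (log2, SE, edgeR adjusted p = 0.0473). Its level was low, 0.151 to 0.964 CPM in IS control and 1.02 to 1.73 CPM in IS insulin, so few reads stand behind it.

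Dpysl3 had the lowest p of all genes. This gene encodes a collapsin response mediator protein of growing axons and serves as a marker of immature neurons. IS control libraries held 66.8 to 86.9 CPM (median 69.8) and IS insulin libraries 44.3 to 63.2 CPM (median 57.4). No insulin library reached the lowest control, and IS insulin replicates 1 and 2 were the lowest of the insulin group. Dpysl3 fell by 0.38 ± 0.066 on the log2 scale (SE, edgeR adjusted p = 0.0282). In bulk tissue fewer cells of a type and less RNA per cell cannot be told apart, here and for every gene below.

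Srrm4, which switches on neuron-specific microexons, had 10.7 to 15.1 CPM in IS control (median 11.8) and 7.66 to 10.3 CPM in IS insulin (median 8.61). The groups did not overlap, and IS control replicate 5 was well above the other controls. It fell by 0.46 ± 0.098 (log2, SE, edgeR adjusted p = 0.0457). Aff1, a scaffold of the super elongation complex of RNA polymerase II, had 8.29 to 11.7 CPM in IS control and 5.36 to 8.30 CPM in IS insulin. Only the extremes of its ranges met, and the decrease was 0.51 ± 0.10 (log2, SE, edgeR adjusted p = 0.0373).

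Fbn2 had 3.72 to 7.83 CPM in IS control (median 4.86) and 2.36 to 4.73 CPM in IS insulin (median 2.85). The overlap came from 1 insulin library, replicate 7, and the decrease of 0.79 ± 0.17 (log2, SE, edgeR adjusted p = 0.0457) was the largest among named genes. Tbc1d24, a regulator of synaptic vesicle traffic, had 76.0 to 90.6 CPM in IS control and 56.0 to 74.4 CPM in IS insulin. Its groups did not overlap, with a decrease of 0.31 ± 0.065 (log2, SE, edgeR adjusted p = 0.044). The GTPase-activating protein gene Arhgap23 and the zinc finger gene Zcchc14 fell by 0.21 and 0.31 on the log2 scale. Every insulin library was below every control for Arhgap23, against 3 of 7 for Zcchc14. The unnamed locus AABR07062799.2 fell by 0.39 on the log2 scale, with no overlap.

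**Figure D2:**
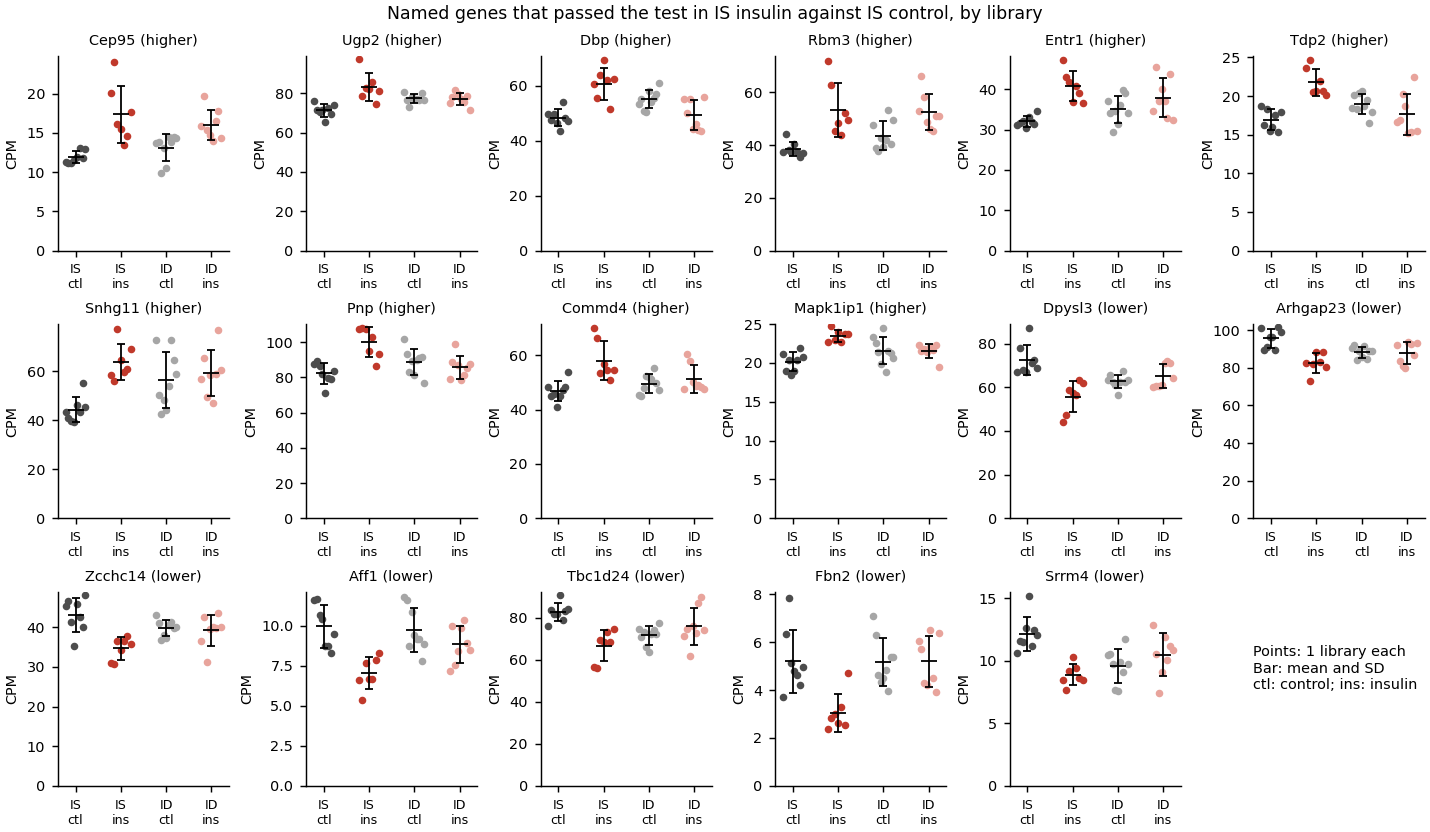
CPM of the 17 called genes with an established symbol, 1 panel per gene, with 1 point per library and the mean and SD of each group. IS control and IS insulin are the darker points on the left of each panel; the iron-deficient groups are the paler points on the right. Cep95, Entr1, Tdp2 and Snhg11 show insulin libraries above every IS control, and Dpysl3, Arhgap23, Tbc1d24 and Srrm4 show them below.

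Just outside the threshold were 10 further named genes with edgeR adjusted p of 0.0552 to 0.0606. Grm5, the metabotropic glutamate receptor mGluR5, had 107 to 148 CPM in IS control and 80.6 to 105 CPM in IS insulin. The ranges did not touch, and the difference was -0.34 ± 0.074 (log2, SE, edgeR adjusted p = 0.0552). Htr1b, a serotonin receptor, differed by -0.47, Apc2 by -0.20 and Jade2 by -0.32 on the log2 scale. Tgds (0.56), Pnn (0.26), Cfdp1 (0.25), Scg3 (0.20), Faf1 (0.18) and Srsf11 (0.18) were on the higher side. Pnn and Srsf11 encode splicing proteins and Scg3 encodes a granin of secretory granules.

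The clock list held the only called gene among the pathway lists on the higher side. The circadian clock couples CLOCK and BMAL1, which activate genes through E-box sequences, to the PER, CRY and REV-ERB repressors, and DBP carries the rhythm to further genes. Dbp had 43.6 to 54.2 CPM in IS control (median 47.9) and 51.7 to 69.5 CPM in IS insulin (median 61.9). One insulin library lay within the control range and the other 6 above it. Dbp rose by 0.33 ± 0.062 (log2, SE, edgeR adjusted p = 0.0282). The difference was 0.35 without IS insulin replicates 1 and 2, where its edgeR adjusted p was 0.183.

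Of the 17 clock genes 1 was called, and 5 were on the higher side and 0 on the lower side at an unadjusted p under 0.05. The shares over all genes tested were 0.123% called, 8.7% higher and 7.59% lower. The median difference was 0.04 (log2) against 0.01 over all genes tested. Ciart, a transcriptional repressor of the clock, had 3.35 to 4.81 CPM in IS control and 4.44 to 6.97 CPM in IS insulin, and 6 of 7 insulin libraries were above every control. Its difference of 0.51 ± 0.14 (log2, SE) did not pass (edgeR adjusted p = 0.0946). Nr1d2 (0.25), Per3 (0.16) and Per2 (0.16), named after their values were seen, were the other members with an unadjusted p under 0.05 (edgeR adjusted p of 0.0999, 0.212 and 0.264). The count of 5 was 4 without IS insulin replicates 1 and 2, where the list's median was 0.07, and 5 with the mitochondrial share as a covariate, where it was 0.14. The time of day at which pups were collected is not given, so its part in the result was not tested.

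The 250 bases before the start site are shown for Dbp, Ciart and Cep95, because these were the called clock gene, the clock gene with the next lowest p and the called gene with the largest named increase. Sequences are from RefSeq (build GRCr8), 5′ to 3′ on the gene's strand, with each CACGTG, the E-box read the same on both strands, in capitals. The windows are chr1:105312006-105312255 on the plus strand for Dbp, chr2:186112247-186112496 on the minus strand for Ciart and chr10:92231579-92231828 on the plus strand for Cep95.
Dbp: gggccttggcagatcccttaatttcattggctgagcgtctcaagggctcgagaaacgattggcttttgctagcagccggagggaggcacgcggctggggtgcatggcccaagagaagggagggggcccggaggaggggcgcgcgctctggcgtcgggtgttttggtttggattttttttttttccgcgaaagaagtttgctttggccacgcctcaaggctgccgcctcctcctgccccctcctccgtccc
Ciart: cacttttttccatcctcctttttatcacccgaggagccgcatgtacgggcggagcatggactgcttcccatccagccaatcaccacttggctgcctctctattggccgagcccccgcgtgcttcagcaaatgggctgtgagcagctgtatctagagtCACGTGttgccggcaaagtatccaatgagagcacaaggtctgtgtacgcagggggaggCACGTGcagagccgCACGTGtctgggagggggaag
Cep95: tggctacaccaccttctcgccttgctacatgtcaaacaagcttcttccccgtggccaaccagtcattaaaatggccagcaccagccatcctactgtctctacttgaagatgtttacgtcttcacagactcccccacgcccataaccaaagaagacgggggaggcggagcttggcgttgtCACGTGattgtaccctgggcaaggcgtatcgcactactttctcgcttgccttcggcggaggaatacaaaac

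Ciart held 3 of these motifs, Cep95 held 1 and Dbp none within this window. Over all 33469 RefSeq promoter windows of the same length 5.59% held at least 1. Of the 17 called genes with a symbol, Cep95 alone had one, and of the 14 clock genes with a window 5 had one (Bhlhe40, Bhlhe41, Ciart, Nr1d1 and Tef). A forkhead motif, TGTTTAC on either strand, stood in 3.21% of all windows, and among the called genes it stood in that of Cep95 alone. A match describes the letters in this window and no more.

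Genes of insulin signalling itself showed small differences, mostly on the lower side, and none passed. The receptor gene Insr had 43.8 to 54.5 CPM in IS control (median 48.8) and 38.7 to 49.4 CPM in IS insulin (median 42.9). The ranges overlapped, with 4 of 7 insulin libraries below every control. The difference was -0.16 ± 0.063 (log2, SE, edgeR adjusted p = 0.193). Irs2, an adaptor that links the receptor to PI3 kinase, had 95.2 to 105 CPM in IS control and 81.1 to 96.7 CPM in IS insulin, and 6 of 7 insulin libraries lay below every control. It differed by -0.15 ± 0.054 (log2, SE, edgeR adjusted p = 0.167).

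The IGF1 receptor gene Igf1r differed by -0.23 ± 0.12, the adaptor gene Irs1 by -0.26 ± 0.13 and Igf2, a growth factor made mostly in meninges and choroid plexus, by -0.12 ± 0.21 (log2, SE). Igfbp5, an IGF-binding protein, had the lowest p of the list, at 167 to 229 CPM in IS control and 102 to 190.2 CPM in IS insulin. These overlapped, and the difference of -0.31 ± 0.11 (log2, SE) had an edgeR adjusted p of 0.149. Over the 16 ligands, receptors, adaptors and binding proteins tested, 0 were called, 4 were lower and 1 higher at an unadjusted p under 0.05, and the median was -0.10. With IS insulin replicates 1 and 2 left out the counts were 2 lower and 0 higher and the median was -0.12.

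Downstream of the receptor, 0 of 24 genes of PI3 kinase, AKT, GSK3 and the brakes on insulin signalling were called. At an unadjusted p under 0.05, 8 were lower and 0 higher, where 7.59% of all genes were lower, and 23 of the 24 had a negative difference, with a median of -0.08. Pdpk1, the kinase PDK1 that activates AKT, had 45.5 to 67.3 CPM in IS control and 35.3 to 49.6 CPM in IS insulin. The highest value came from IS control replicate 5, and 4 of 7 insulin libraries were below every control. Pdpk1 differed by -0.28 ± 0.078 (log2, SE, edgeR adjusted p = 0.0999), and Pik3r3, a regulatory subunit of PI3 kinase, by -0.24 ± 0.081 (edgeR adjusted p = 0.146). The count of 8 was 3 without IS insulin replicates 1 and 2, and 2 with the mitochondrial share as a covariate.

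FoxO factors and genes that FoxO induces gave 0 called of 21, with 1 lower at an unadjusted p under 0.05 and a median of -0.06. That gene was Foxo1, with 22.8 to 30.7 CPM in IS control and 20 to 27.1 CPM in IS insulin, overlapping, and a difference of -0.19 ± 0.081 (log2, SE, edgeR adjusted p = 0.223). Among 20 genes of the mTOR complexes and translation control 0 were called, 1 was higher and 2 lower at an unadjusted p under 0.05, and the median was -0.02. Mtor itself differed by -0.04 ± 0.044, Eif4ebp2, a translation repressor, by -0.17 ± 0.074, and Eif4e, the cap-binding protein it holds, by 0.10 ± 0.049 (log2, SE).

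Glucose transport and glycolysis gave 0 called of 30, with 4 higher and 1 lower at an unadjusted p under 0.05 and a median of 0.01. That median was 0.05 without IS insulin replicates 1 and 2. Slc2a1, the glucose transporter of the blood-brain barrier, had 92.9 to 153 CPM in IS control and 109 to 138 CPM in IS insulin, with the insulin range inside the control range. Slc2a4, the insulin-regulated transporter GLUT4, was low in both groups at 1.30 to 2.55 and 0.962 to 2.65 CPM. Ldhb, a lactate dehydrogenase subunit, differed by 0.15 ± 0.041 and Aldoc, the brain aldolase, by 0.18 ± 0.055 (log2, SE, edgeR adjusted p of 0.0999 and 0.11). Eno2, a neuronal enolase named after its values were seen, reached 84.7 CPM in a single IS control library, while the group medians were 3.93 CPM in IS control and 3.50 CPM in IS insulin.

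Of 29 genes of sterol and fatty acid synthesis 0 were called, 4 were higher and 3 lower at an unadjusted p under 0.05, and the median was 0.01. The shares over all genes were 8.7% higher and 7.59% lower. With IS insulin replicates 1 and 2 left out 1 was higher and 1 lower. Msmo1 and Fdft1, enzymes of cholesterol synthesis, each differed by 0.12 (log2, edgeR adjusted p of 0.155 and 0.178). Elovl6, a fatty acid elongase named after its values were seen, was listed at 0.581 to 5.14 CPM in IS control and 0.426 to 2.05 CPM in IS insulin, wide in both.

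Genes of the excitatory synapse had mostly negative differences, and none passed. Of 25 genes of AMPA and NMDA receptors and the postsynaptic density 0 were called, and 21 had a negative difference, with a median of -0.12. At an unadjusted p under 0.05, 10 were lower and 0 higher, where 7.59% of all genes were lower and 8.7% higher. Gria1, an AMPA receptor subunit, had 329 to 424 CPM in IS control (median 377) and 253 to 399.7 CPM in IS insulin (median 329). Grin2b, the NMDA receptor subunit that predominates early in development, had 55.8 to 141 CPM in IS control (median 73.1) and 34.2 to 75.3 CPM in IS insulin (median 54.4). Both overlapped between groups, and the top value of Grin2b was IS control replicate 5 alone.

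Gria1 differed by -0.27 ± 0.090 and Grin2b by -0.53 ± 0.18 (log2, SE, edgeR adjusted p of 0.147 and 0.153). Among the other 8 genes were Grin2a, Grin2d, Shank1, Shank3, Camk2a, Cacng8 and Grip1, named after their values were seen. The count of 10 became 3 without IS insulin replicates 1 and 2 and 2 with the mitochondrial share as a covariate, and the median -0.07 in both. Among 19 genes of GABA signalling and interneurons 0 were called, with 1 higher and 2 lower at an unadjusted p under 0.05, and 1 and 0 without IS insulin replicates 1 and 2. Gabrd, an extrasynaptic GABA receptor subunit, differed by 0.33 ± 0.13 (log2, SE, edgeR adjusted p = 0.193).

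Immediate early genes, which neurons switch on within minutes of activity, gave 0 called of 26, with a median of -0.11. At an unadjusted p under 0.05, 3 were lower, where 7.59% of all genes were lower. Fosb had 3.04 to 8.41 CPM in IS control (median 5.42) and 2.50 to 4.34 CPM in IS insulin (median 2.99), with 4 of 7 insulin libraries below every control. It differed by -0.81 ± 0.20 (log2, SE, edgeR adjusted p = 0.0891), and Fosl2 by -0.43 ± 0.12 (edgeR adjusted p = 0.0999). Fos had 6.66 to 18.0 CPM in IS control and 8.14 to 13.5 CPM in IS insulin, and the insulin range lay within that of the controls. Once IS insulin replicates 1 and 2 were left out, 5 of the 26 were lower at an unadjusted p under 0.05 and the median was -0.14.

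Neurotrophins gave 0 of 9 genes at either threshold. Bdnf, the growth factor most studied in early iron deficiency, had 29.5 to 43.6 CPM in IS control (median 36.3) and 32.3 to 39.5 CPM in IS insulin (median 37.0), and the insulin values lay inside the control range. Of 14 glucocorticoid-responsive genes 0 were called and 2 were lower at an unadjusted p under 0.05, with a median of -0.16; without IS insulin replicates 1 and 2 these were 1 and -0.13. Fkbp5, a chaperone of the glucocorticoid receptor induced by the hormone, differed by -0.32 ± 0.10 (log2, SE, edgeR adjusted p = 0.13).

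Iron genes were measured because the study contrasts iron states. Of 21 genes of iron uptake, storage and export 0 were called, and the median was 0.07. At an unadjusted p under 0.05, 3 were higher, where 8.7% of all genes were higher. The count was 2 and the median 0.02 without IS insulin replicates 1 and 2, and with the mitochondrial share as a covariate they were 1 and 0.05. Tfrc, the transferrin receptor that cells raise when short of iron, had 106 to 127 CPM in IS control (median 118) and 117 to 165 CPM in IS insulin (median 120.4). Only IS insulin replicate 1 exceeded the control range. Tfrc differed by 0.12 ± 0.073 (log2, SE, edgeR adjusted p = 0.44), and Fbxl5, the iron-sensing ubiquitin ligase subunit, by 0.17 ± 0.045 (edgeR adjusted p = 0.0929), with 6 of 7 insulin libraries above every control.

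Respiratory chain genes had small positive differences. All 22 nuclear genes tested had a positive difference, with a median of 0.07, but 0 were called and 5 were higher at an unadjusted p under 0.05. Over all genes tested 8257 of 15439 had a positive difference, 8.7% were higher at that p and the median was 0.01. Uqcrc2, a core subunit of complex III, had 264 to 295 CPM in IS control and 288 to 349 CPM in IS insulin, with a difference of 0.14 ± 0.039 (log2, SE, edgeR adjusted p = 0.0999). The 13 mitochondrially encoded genes, a list added after the data were seen, also all had a positive difference, with a median of 0.24, and 8 were higher at an unadjusted p under 0.05. Mt-co1, a catalytic subunit of complex IV, differed by 0.23 ± 0.089 (log2, SE, edgeR adjusted p = 0.193). Without IS insulin replicates 1 and 2 the nuclear list had 20 positive differences, 2 at an unadjusted p under 0.05 and a median of 0.04, and the mitochondrial one 12, 3 and 0.16. With the mitochondrial share as a covariate 17 of the 22 nuclear genes had a positive difference, 2 were higher at an unadjusted p under 0.05 and the median was 0.04.

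Proliferation genes and markers of newborn neurons had mostly negative differences, 14 of the 18 tested, where 7182 of all 15439 genes had one. Dpysl3 was called, 4 were lower and 1 higher at an unadjusted p under 0.05, and the median was -0.14. Mki67, the proliferation marker, had 7.12 to 9.76 CPM in IS control (median 8.66) and 4.90 to 8.91 CPM in IS insulin (median 6.42). Of the 7 insulin libraries 5 were below every control, and the difference was -0.34 ± 0.11 (log2, SE, edgeR adjusted p = 0.129). Dcx, the doublecortin of migrating neurons, named after its values were seen, differed by -0.17 ± 0.065 (log2, SE, edgeR adjusted p = 0.193). The median stayed at -0.13 without IS insulin replicates 1 and 2, with 3 lower at an unadjusted p under 0.05.

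The oligodendrocyte lineage was followed through precursor genes and myelin genes. Gpr17, a receptor of precursors about to mature, had 94.8 to 105 CPM in IS control (median 98.9) and 79.0 to 94.2 CPM in IS insulin (median 89.4). The groups did not overlap, and the difference of -0.19 ± 0.051 (log2, SE) did not pass (edgeR adjusted p = 0.0999). Of 8 precursor genes 0 were called and 2 were lower at an unadjusted p under 0.05, with a median of -0.08; without IS insulin replicates 1 and 2 these were 1 and -0.05. Of 18 myelin genes 0 were called, 13 had a positive difference and 3 were higher at an unadjusted p under 0.05, with a median of 0.03. The share higher over all genes was 8.7%. When IS insulin replicates 1 and 2 were left out, 8 were positive, 0 were higher and the median was -0.01, and with the mitochondrial share as a covariate these were 8, 0 and -0.03.

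Myelin genes climb steeply over the early postnatal weeks, and Mbp is given because the labels leave the day of the controls unsettled. The age of the control pups was not tested. Mbp, which encodes the myelin basic protein, had 6635 to 9469 CPM in IS control and 7762 to 9975 CPM in IS insulin. The ranges overlapped over most of their width, and the difference was 0.08 ± 0.11 (log2, SE, edgeR adjusted p = 0.772).

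Marker lists checked the labelled tissue and its neighbours. Granule and pyramidal neuron markers summed to 1897 to 2203 CPM in IS control and 1648 to 2065 CPM in IS insulin, and gave 0 called of 13 with a median of -0.10, which was -0.07 without IS insulin replicates 1 and 2 and -0.01 with the mitochondrial share as a covariate. Astrocyte (12), microglia (12) and endothelial and mural (14) markers gave 0 called, with medians of 0.00, 0.02 and 0.06, and of 0.05, 0.03 and 0.06 without those libraries. All 12 choroid plexus genes had a positive difference and a median of 0.55, yet 0 reached an unadjusted p under 0.05. Their summed level was 18.7 to 3454 CPM in IS control and 29.5 to 4460.5 CPM in IS insulin, and without IS insulin replicates 1 and 2 all 12 differences were negative with a median of -0.39. Markers of ependyma (12 genes, median 0.11), meninges (11, -0.20), blood (8, 0.26), thalamus and habenula (12, -0.06), striatum and monoamine neurons (11, 0.15) and neocortex (10, 0.03) gave 0 called. With IS insulin replicates 1 and 2 removed these medians were -0.06, -0.16, 0.34, -0.11, 0.04 and 0.05, so that of ependyma changed sign, as it did with the mitochondrial share as a covariate (-0.09). The thalamus and habenula median was 0.01 with that covariate. Lamp5, on the neocortex list, differed by 0.60 ± 0.17 (log2, SE, edgeR adjusted p = 0.0999). The part of neighbouring tissue in the differences was tested for choroid plexus alone: with its list as a covariate 14 genes were called, all among the 19.

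The other tools made different numbers of calls. DESeq2, with 1.33% of all genes called, called 2 of 17 clock genes, 2 of 26 immediate early genes and 1 gene on each of the PI3 kinase, glycolysis, iron, nuclear respiratory chain, proliferation and oligodendrocyte precursor lists. The limma voom fit called 28 genes (0.181%), with 1 clock gene and 1 gene of the proliferation list.

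**Figure D3:**
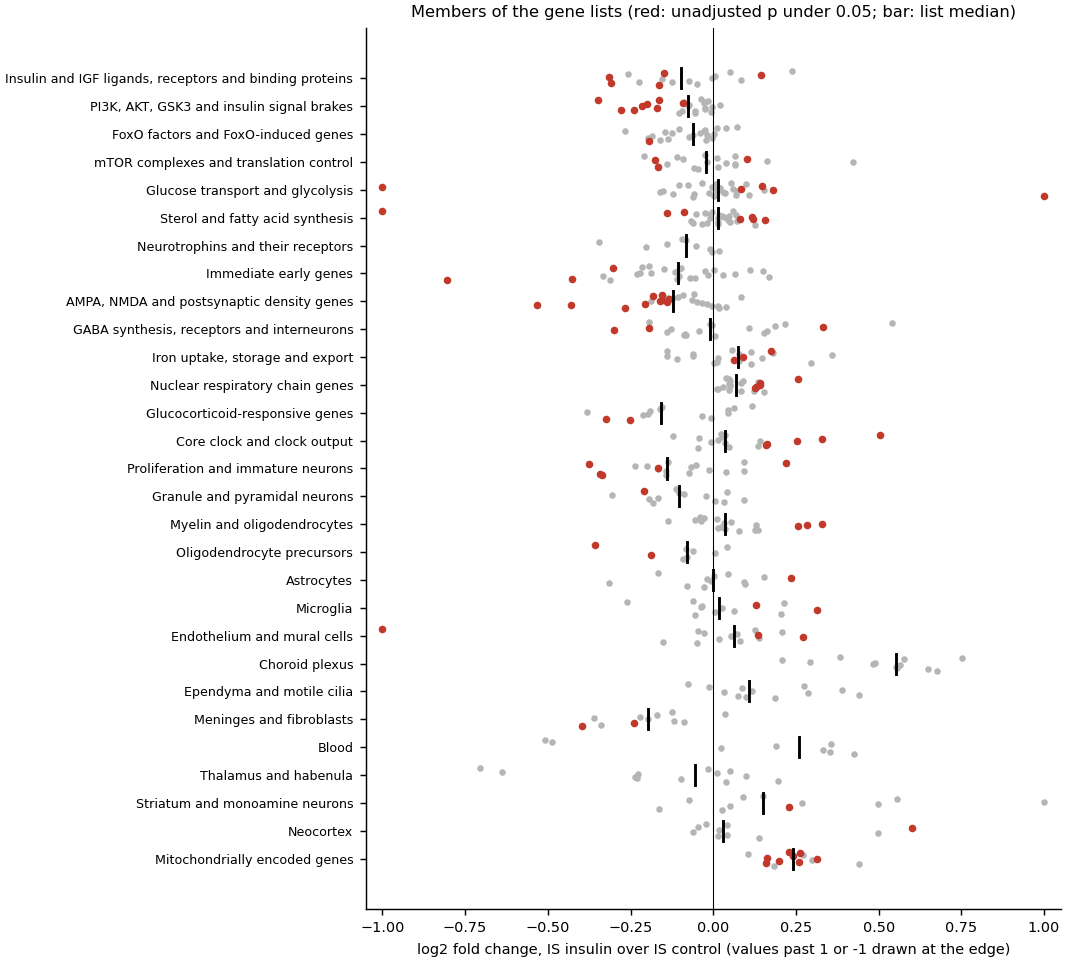
Log2 fold change of IS insulin over IS control for each member of 28 gene lists and of the mitochondrially encoded genes, 1 point per gene, with the list median as a bar and members at an unadjusted p under 0.05 in red. Synapse genes and PI3 kinase genes lie mostly left of 0, and respiratory chain, mitochondrial and choroid plexus genes right of it; 5 members beyond 1 or -1 are drawn at the edge.

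The same treatment in iron-deficient pups gave other values for the called genes. That comparison shares no library with the one above. There 589 genes (3.82%) were called by edgeR and 3017 (19.5%) had an unadjusted p under 0.05. Of the 19 genes called in IS pups, 10 had the same sign in ID pups and 9 the opposite sign, 0 were called there and 3 had an unadjusted p under 0.05. Cep95 differed by 0.29 and Rbm3 by 0.27 (log2) in ID pups, in the direction seen in IS pups, and Dbp by -0.16, in the other direction. Over all 15439 genes the log2 fold changes of both comparisons had a Pearson correlation of 0.145 and a Spearman correlation of 0.073 as a description across genes, which are not independent replicates, and 52.2% shared a sign.

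The test of the difference itself, the interaction of diet and insulin, called 145 genes (0.939%) by edgeR. Of these, 8 were among the 19: Dpysl3, Ugp2, Dbp, Tdp2, Pnp, Tbc1d24, Srrm4 and AABR07039133.2. The 19 were chosen for their IS difference, which is itself a part of the interaction. The overlap of 8 is therefore favoured by the choice and is no separate support. For Dbp the IS difference exceeded the ID difference by 0.49 (log2, edgeR adjusted p = 0.0052), and for Dpysl3 the interaction was -0.43 (edgeR adjusted p = 0.0236). In 143 of the 145 genes the IS and ID differences had opposite signs. Choosing genes by the gap between these differences favours opposite signs, so this count describes the choice. Without IS insulin replicates 1 and 2 the interaction called 23.

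**Figure D4:**
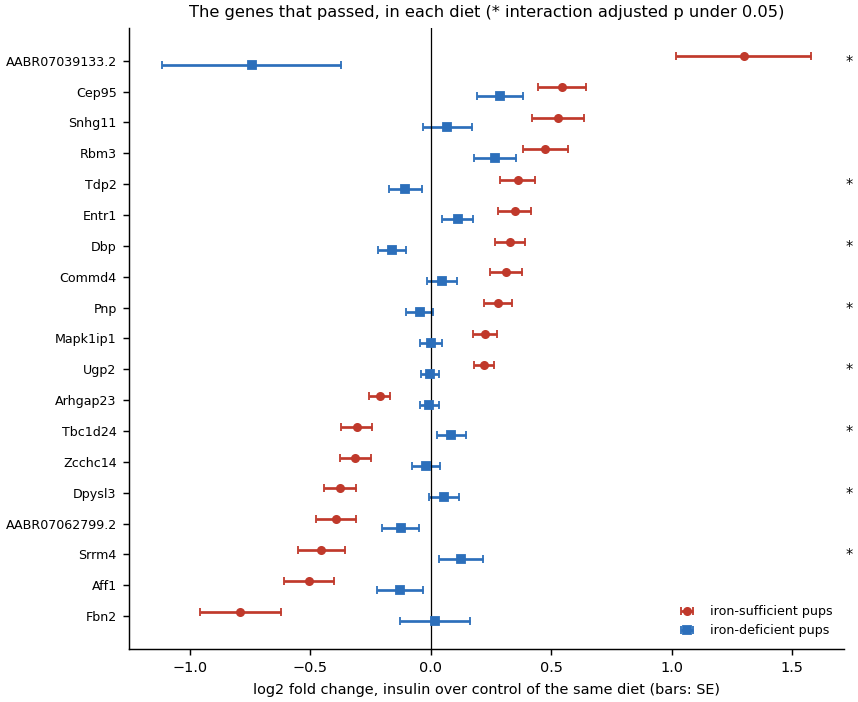
Log2 fold change of insulin over control of the same diet, with SE, for the 19 genes called in iron-sufficient pups (red circles) and the same genes in iron-deficient pups (blue squares). An asterisk marks the 8 genes whose difference between diets had an adjusted p under 0.05; Cep95 and Rbm3 lie to the right of 0 in both diets.

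On the gene lists the interaction called 4 of 18 genes of proliferation and immature neurons (Mki67, Cenpf, Dcx and Dpysl3), 3 of 14 endothelial and mural genes (Slco1a4, Itm2a and Vtn), 2 of 17 clock genes (Dbp and Nr1d1) and 2 of 22 nuclear respiratory chain genes (Ndufa10 and Ndufb10), against 0.939% of all genes. Some of these were named after their values were seen. It called 1 of 8 oligodendrocyte precursor genes (Gpr17) and 1 or 0 on every other list. Mki67 differed by -0.34 in IS pups and by 0.54 in ID pups (interaction -0.88, edgeR adjusted p = 0.00433), and Gpr17 by -0.19 and 0.28 (interaction -0.47, edgeR adjusted p = 0.00244). Thrsp, a lipogenic gene responsive to thyroid hormone, differed by 0.37 in IS pups and -0.55 in ID pups (edgeR adjusted p = 0.00439). Mphosph6, a cofactor of the RNA exosome, differed by 0.44 and -0.48, Scg3 by 0.20 and -0.14, Tspyl5 by -0.20 and 0.24, and Ptpro, a receptor-type phosphatase of neurons, by -0.19 and 0.36. For Slc39a12, a zinc transporter of astrocytes, and Prss12, the neurotrypsin of synapses, the interaction came from the ID pups: the IS differences were -0.17 ± 0.39 and -0.14 ± 0.19 (log2, SE). Slc39a12 spread widely in both IS groups, from 2.97 to 38.4 CPM in IS control and from 1.74 to 41.3 CPM in IS insulin.

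The direction of the differences in IS pups went with the length of the gene, a pattern looked for after the data were seen. Genomic length, from start to end with introns, was taken from RefSeq (assembly GRCr8) for 13466 of the 15439 genes (87.2%). Among the shortest of 5 equal groups of genes by length, up to 8.65 kb, 11.1% were higher and 2.75% lower at an unadjusted p under 0.05. Among the longest group, from 80.5 kb, 3.86% were higher and 17.6% lower. The median difference ran from 0.05 in the shortest group to -0.05 in the longest (log2), and the Spearman correlation across genes was -0.230, a description with no p because genes are not independent. Of the called genes with a length, the 10 that rose had a median of 7.19 kb and 0 were in the longest group, and the 7 that fell had a median of 105.8 kb with 5 in the longest group (Arhgap23, Dpysl3, Srrm4, Aff1 and Fbn2).

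Per library, the median of the longest group minus that of the shortest group, each against the IS control mean in log2 CPM, was -0.08 to 0.15 in IS control and -0.20 to 0.03 in IS insulin. IS insulin replicates 1, 2 and 3 were the lowest and IS control replicate 5 the highest. IS insulin replicate 5, without which 3 genes were called, lay at -0.079, inside the IS control range. Without IS insulin replicates 1 and 2 the correlation across genes was -0.204, and 7.69% of the longest group were lower and 1.30% higher. With the mitochondrial share as a covariate it was -0.025, and 5.61% were lower and 4.12% higher. This share was 8.47% in IS control and 9.89% in IS insulin, so the covariate and the group cannot be fully told apart. In ID pups the correlation was 0.114, of the other sign. RNA integrity is not given in the sources used here, so its part in this pattern was not tested.

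**Figure D5:**
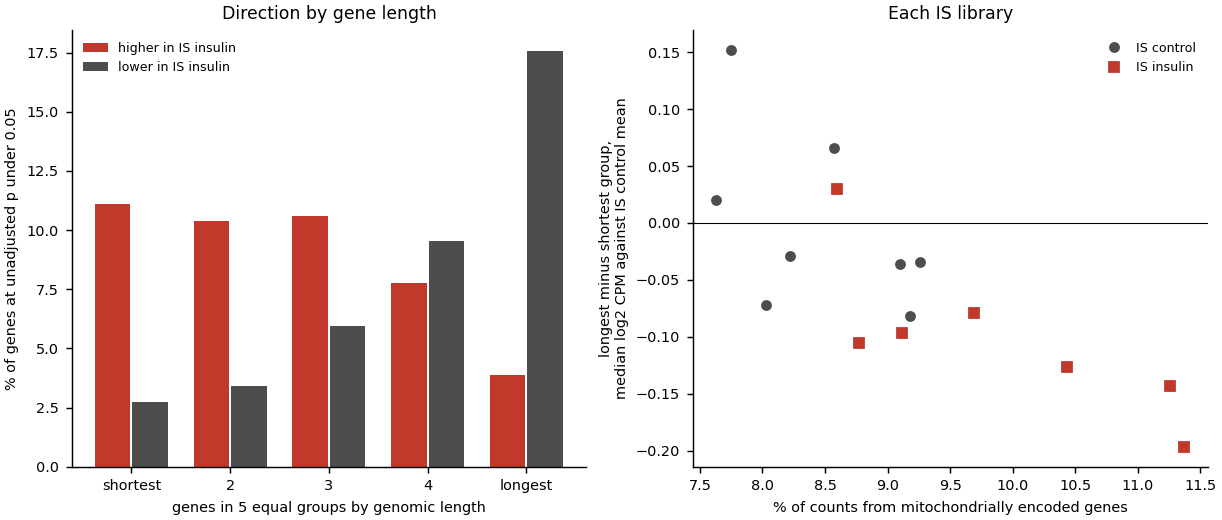
Left, percent of genes higher (red) or lower (grey) in IS insulin at an unadjusted p under 0.05, in 5 equal groups of genes ordered by genomic length. Right, for each IS library, the difference between the longest and the shortest group in median log2 CPM against the IS control mean, over the percent of counts from mitochondrially encoded genes. The longest group has 17.6% lower and 3.86% higher genes, and the libraries with the highest mitochondrial share are the lowest on the right.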

How the data were processed

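Per the labels' protocols, total RNA came from 1 hippocampus per rat. The authors deposited raw read counts for each gene. They used, per the submitters' processing notes, Trimmomatic (version 0.40), FastQC, HISAT2 (version 2.1.0), featureCounts and edgeR, with Rnor_6.0 and mm10 listed without a role. Strandedness and multi-mapped reads are not stated, so overlapping genes and near-identical copies are uncertain. Of the symbols 26 had become dates; these genes were tested and not named. Some genes are not reported here.

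Of 32883 genes 9663 had no count; filterByExpr kept 15439. Counts were fitted in R 4.3.3 with edgeR 4.0.16 (TMM, glmQLFit and glmQLFTest, two-sided, 1 coefficient per group, all 32 libraries, 28 residual degrees of freedom), with Benjamini-Hochberg adjustment, and genes with an adjusted p under 0.05 were called. The steps were tested on simulated counts. Libraries of a group differed by a chi-square of at least 6.64 per gene, so none was a copy. Alternatives used DESeq2 1.42.0, limma 3.58.1, other filters, covariates and left-out libraries.

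Named were all called genes, the next 10, 14 chosen genes, 2 per list with the lowest p and the 10 leading interaction genes. The genes and the 29 lists (466 of 491 entries tested, matched by symbol) were chosen with earlier results of these data known. Depth limits genes near 1 CPM.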

Additional observations from a re-analysis of the deposited data

Results flagged for a closer look

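Within a group, 1 library lay far from the rest (gap over range above Dixon's 95% value) in 22 of 208 groups examined, where chance gives about 1 in 20. IS control replicate 5 was the highest control for Srrm4 (15.1 CPM, others 10.7 to 12.6), Grm5 (148), Pdpk1 (67.3), Grin2b (141, others 55.8 to 86.8), Sort1 (934) and Mtor (164). IS insulin replicate 1 was highest for the myelin genes Opalin (293, others 171 to 203) and Ermn (124, others 59.7 to 77.5), for Tfrc (165), Eif4e (126) and Pnn (64.2), and lowest for Jade2 (18.9). IS insulin replicate 2 was lowest for Sox6 (6.13). IS insulin replicate 7 was highest for Fbn2 (4.73) and Mtor (165), and IS insulin replicate 6 was lowest for Scg3 (306) and had the highest total count (28062630). Haemoglobin genes stood out in IS insulin replicate 4, with 1142 CPM for Hbb and 1873 for Hba-a2, and in IS control replicate 3 for Hbb (957). IS control replicate 7 was highest for Snhg11 (55.1) and IS control replicate 6 for Lamp5 (63.1).

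The difference between insulin and control libraries was not the same in IS and ID pups for 24 named genes, by edgeR's test of the interaction (adjusted p under 0.05). The IS difference was above the ID difference for AABR07039133.2 (2.04, log2), Prss12 (1.53), Lamp5 (0.99), Thrsp (0.92), Mphosph6 (0.92), Slco1a4 (0.50), Dbp (0.49), Tdp2 (0.47), Scg3 (0.34), Pnp (0.33), Cfdp1 (0.31), Ldhb (0.24) and Ugp2 (0.23). It was below for Slc39a12 (-3.64), Mki67 (-0.88), Srrm4 (-0.58), Ptpro (-0.55), Gpr17 (-0.47), Pdpk1 (-0.45), Tspyl5 (-0.44), Dpysl3 (-0.43), Grm5 (-0.42), Tbc1d24 (-0.39) and Apc2 (-0.24). These genes were named partly for their interaction, so their number describes the choice.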

How the results depend on the processing

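The number of genes called in IS insulin against IS control was 19. Over all genes tested it was 16 with DESeq2 size factors, 28 with limma voom, 14 without a filter on low counts, 20 with a filter of 1 CPM in 7 libraries, 27 with Y-linked transcripts as a covariate, 14 with the choroid plexus list as a covariate and 15 with the earlier quasi-likelihood method. DESeq2 called 206, of which 94 were higher and 112 lower (45.6% higher). The 15 IS libraries alone gave 9, of which 6 were among the 19. The mitochondrial share as a covariate and the removal of IS insulin replicates 1 and 2, both chosen after seeing the data, each gave 0 (1268 and 1051 at an unadjusted p under 0.05). Leaving out 1 library at a time gave 0 to 34: 0 without IS control replicate 5 or IS insulin replicate 1, 2 without IS insulin replicate 2, 3 without IS insulin replicate 5, 5 without IS insulin replicate 3, 6 without IS control replicate 1 or IS insulin replicate 4, 7 without IS control replicate 2 or 8, 8 without IS control replicate 4 or 7, and 34 without IS insulin replicate 6. Whether the second title number pairs the libraries was not settled. Over 6 shared numbers the correlations were -0.033 to 0.250, 3 of them over 0.1, and 1 library was best matched to its own number. In both IS groups the libraries with Y-linked transcripts had the higher second numbers. With this number as a replicate block 1 gene was called, which was none of the 19.

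The interaction, at 145, became 423 with DESeq2, 491 with limma voom, 94 without a filter on low counts and 23 without IS insulin replicates 1 and 2, and 40 to 607 with 1 library left out. The comparison in ID pups, at 589, ranged from 323 to 810 with 1 library left out. The cause of these shifts was not tested. Of uncalled genes, Bdnf changed sign, to 0.029 with limma voom, 0.00057 with the Y-linked covariate, 0.014 with the choroid plexus covariate, 0.093 with the mitochondrial covariate and 0.027 without IS insulin replicates 1 and 2. Slc2a4 became -0.0019 with DESeq2 size factors, -0.00936 with limma voom, -0.00381 without a filter, -0.011 with the choroid plexus covariate, -0.0019 in the 15 IS libraries and -0.00178 with the replicate block. Mtor became 0.0015 and Mbp -0.029 with the mitochondrial covariate, and Ttr -0.29 without IS insulin replicates 1 and 2. With 1 library left out Bdnf ranged from -0.042 to 0.041 and Slc2a4 from -0.12 to 0.10.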
